A study of Ovis aries with 36 samples.

Results

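Mitochondrial ribosomal protein genes are the nuclear genes for the protein parts of the ribosome inside mitochondria. They were taken here as every locus whose gene name begins with MRPL or MRPS and a digit, with at least 10 counts summed over the 12 libraries of a tissue. This gave 66 gene symbols in each tissue, 41 of them MRPL and 25 MRPS. They lay on 67 of 34958 loci in longissimus dorsi muscle, 69 of 34246 in subcutaneous adipose tissue and 68 of 35060 in perirenal adipose tissue. Only 4 further loci with such a name fell under the count minimum, 2 in muscle and 1 in each adipose tissue.

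The libraries were RNA-seq of fetal sheep (Ovis aries) tissue, and the dams, Polypay ewes, were fed 1 of 3 diets from mid to late gestation, when the fetuses were taken. HY was based on haylage, CN on corn and DG on dried corn distillers grains, and no group was fed a further control diet. Each tissue and diet had 4 libraries, each of RNA from a single sex, with 2 female pools (F1 and F2) and 2 male pools (M1 and M2). By the list of pools in the paper, CN F2 held 1 fetus only, and every other pool held 2 or 3. Some pools of a diet held fetuses of a shared dam, so p-values measure the spread between pools that are not fully independent. Each tissue piece holds several cell types, so fewer cells of a type and less RNA per cell cannot be told apart in these data.

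A mitochondrial ribosome has a large subunit, which joins amino acids, and a small subunit, which reads the messenger RNA. It makes only the few hydrophobic subunits of the respiratory chain that are encoded in mitochondrial DNA, while its own proteins are made in the cytosol and imported. Many of these proteins descend from bacterial ribosomal proteins, and the others were added during the evolution of mitochondria. Muscle and brown fat are both known for a large mitochondrial content. In sheep, perirenal fat around birth is known for brown fat features.

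By textbook assignment, 25 of the 66 symbols are large subunit proteins with a bacterial homologue and 18 are large subunit proteins particular to mitochondria. A further 13 are small subunit proteins with a bacterial homologue and 9 are small subunit proteins particular to mitochondria. MRPS18A and MRPS30 carry an MRPS name but belong to the large subunit. MRPS36 carries the name but is now assigned to the ketoglutarate dehydrogenase complex of the citrate cycle.

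Total counts per library ranged from 6705766 to 29625146. The median member symbol had 9704 counts over the 12 muscle libraries, 6781 over the subcutaneous and 6642 over the perirenal libraries. Over 54 pairs of pools of the same group, chi-square divided by its degrees of freedom was 11.35 to 336.6, so no pair was alike within sampling noise. Summed skeletal muscle markers, 11 of 16 listed genes that were found in all tissues, were at 103030 to 152620 CPM (counts scaled to a library of 1000000 counts) in muscle and at 26.8 to 634 CPM in perirenal fat. In subcutaneous fat the same sum ran from 797 to 124850 CPM, and 5 pools (CN F2, DG F1, DG F2, DG M2 and HY F2) stood highest. Summed adipocyte markers, 7 of 9 listed genes, were at 90.5 to 192 CPM in muscle, where LEP was at 0, against 2105 to 11036 CPM in subcutaneous and 5810 to 15373 CPM in perirenal fat. Summed brown adipocyte markers, 6 of 6 listed genes with PPARGC1A among them, were at 877 to 1747 CPM in perirenal fat. Their sum was 325 to 847 CPM in muscle and 226 to 492 CPM in subcutaneous fat. Within this sum PPARGC1A was lowest in perirenal fat, at 4.46 CPM against 53.5 CPM in muscle and 27.4 CPM in subcutaneous fat. UCP1 was at 0 in the CN muscle pools. The other brown adipocyte markers are not given singly here, so the sum does not rank the tissues by brown adipocytes. Of 28 listed names of genes encoded in mitochondrial DNA, 0 could be matched across the tissues. The messages that these ribosomes translate were therefore not analysed here.

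Loci had been assembled in each tissue separately, so tissues were joined by gene name. Of the 66 symbols, 57 were the only name of their loci in all tissues and entered the tissue comparisons. The other 9 shared a locus with a neighbour somewhere, as MRPL38 with TRIM65 in all tissues, MRPS16 with DNAJC9 in muscle and subcutaneous fat, and MRPS36 with CENPH in both adipose tissues. Regions given below are the assembled regions of genome build Oar_v3.1, not the ends of a gene. Of the 57, 37 had a single locus in each tissue with spans within 10% of each other. Alone in their assembled region in every tissue were 33 of the 57, and the others shared it with another locus in some tissue. Transcript lengths were not at hand, so levels were compared between tissues and diets but never between genes.

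The summed level of the 57 members was lowest in muscle and highest in perirenal fat. As CPM of the library totals it was 2394.8 ± 162.6 CPM in muscle (SD, n = 12), 2764.8 ± 331.5 CPM in subcutaneous fat and 3323.8 ± 278.5 CPM in perirenal fat. The lowest, median and highest pools were 2152.3, 2377.4 and 2666.4 CPM in muscle. They were 2460.2, 2658.8 and 3582.7 CPM in subcutaneous fat and 2882.3, 3362.7 and 3663.1 CPM in perirenal fat. Muscle and perirenal pools did not overlap, while subcutaneous pools overlapped both.

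These sums depended on the scaling. In muscle the 20 top loci held 19.5% to 23.9% of all counts, against 9.62% to 15.3% in perirenal fat. After TMM scaling, which sets the typical gene level across libraries, the sums were 2682.7, 2774.4 and 2978.4 CPM in muscle, subcutaneous and perirenal fat. With the 20 top gene names taken out of the totals they were 2917, 3113.8 and 3608.9 CPM. The order of the means was the same on these scales, and the gap between muscle and perirenal fat shrank under TMM. Over the 37 members with like spans alone, muscle and subcutaneous fat were nearly level, at 1584.3 and 1587 CPM, and perirenal fat was at 1992.9 CPM.

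**Figure D1:**
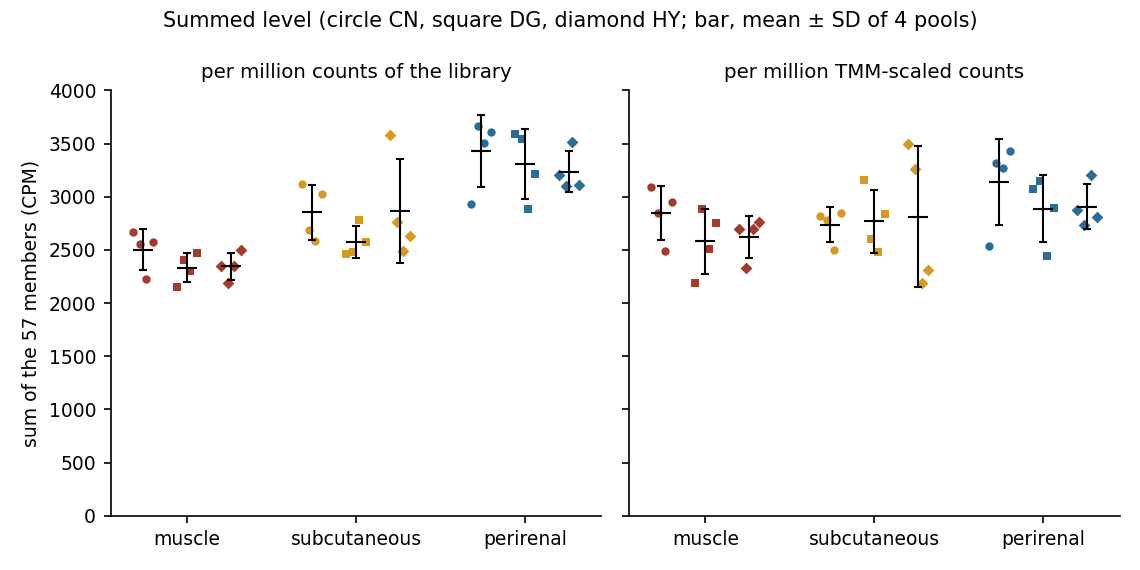
Summed level of the 57 joined mitochondrial ribosomal protein genes (y axis, CPM) in each pool, by tissue (x axis), as CPM of library totals (left) and as TMM-scaled CPM (right). Points are pools by maternal diet and bars the mean ± SD of 4 pools. On the left all muscle pools (2152.3 to 2666.4) sit under all perirenal pools (2882.3 to 3663.1), and on the right the tissues overlap.

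The balance of the subunits was compared by summed level. The summed level of the 38 large subunit members was 2.36 ± 0.09 times that of the 19 small subunit members in muscle (SD, n = 12), with pools from 2.22 to 2.47. The ratio was 2.07 ± 0.15 in subcutaneous fat (1.80 to 2.30) and 2.58 ± 0.18 in perirenal fat (2.37 to 2.98). Subcutaneous and perirenal pools did not overlap, and muscle pools overlapped both. This ratio weights each gene by its length and level, so it is not a count of subunits. Without the 5 subcutaneous pools richest in muscle markers it was 2.15 ± 0.12 in that tissue (n = 7).

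Single members differed widely between muscle and perirenal fat, in both directions. Of the 57, 42 passed FDR ≤0.05 by the quasi-likelihood test of edgeR, against 79.7% of all 12769 names tested. Of these, 19 were higher in muscle and 23 in perirenal fat, against 39.8% and 39.9% of all names, and 11 differed at least 2-fold, against 41.6%. The median log2 fold change of the members was -0.03 (muscle minus perirenal fat), beside -0.00 over all names. With library totals as the scale, the median of all names moved to -0.32, that of the members to -0.35, and the calls split into 12 higher and 32 lower in muscle, against 29.7% and 51% of all names. Among the 37 members with like spans, 13 were higher and 11 lower in muscle. A separate fit and scaling on names with like spans alone gave 17 and 11, against 40.2% and 37.2% of the 7641 names in that fit.

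MRPL43, a large subunit protein particular to mitochondria, had the largest difference toward muscle. Its lowest, median and highest pools were 27.8, 39.1 and 50.7 CPM in muscle, 3.79, 4.37 and 7.89 CPM in subcutaneous fat and 0.70, 1.56 and 3.07 CPM in perirenal fat. No pool of any tissue overlapped another tissue. Muscle was above perirenal fat by a log2 fold change of 4.67 ± 0.16 (SE, edgeR FDR = 2.8e-22), and above subcutaneous fat by 2.91 ± 0.14 (FDR = 3.3e-18). MRPL43 lies in the region chr22:20958607-20971186 together with SEMA4G, which was at 3.58, 0.77 and 1.04 CPM in muscle, subcutaneous and perirenal fat. It was 1 locus in muscle and 2 loci, summed here, in each adipose tissue, and the part of that split in the difference was not tested.

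MRPS12, the homologue of the bacterial protein at the decoding centre, was also high in muscle. Its pools were at 2.36, 6.48 and 9.33 CPM in muscle, 0.14, 0.93 and 2.16 CPM in subcutaneous fat and 0.50, 1.23 and 4.32 CPM in perirenal fat. Muscle pools were above all subcutaneous pools and overlapped the perirenal ones. Muscle was higher by a log2 fold change of 2.12 ± 0.28 over perirenal fat (FDR = 4.1e-08) and 2.56 ± 0.29 over subcutaneous fat (FDR = 2.1e-09). The locus held 1405, 167 and 227 counts in muscle, subcutaneous and perirenal fat over all pools, so it was thinly covered in fat.

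MRPL24, a large subunit protein near the exit of the peptide tunnel, was at 49.2, 70.8 and 94.2 CPM in muscle. It was at 12.9, 19.6 and 34.8 CPM in subcutaneous fat and 13.9, 23.8 and 32.4 CPM in perirenal fat. All muscle pools were above all adipose pools, by a log2 fold change of 1.51 ± 0.15 over perirenal fat (FDR = 9.0e-11) and 1.73 ± 0.15 over subcutaneous fat (FDR = 8.5e-12). MRPL24 and MRPS12 had spans within 10% of each other in all tissues, though each shared its region with a neighbouring gene.

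The 3 MRPS18 paralogues, which are related to the same bacterial protein, had different patterns. In the classes used here only MRPS18C is counted as having a bacterial homologue. MRPS18A and MRPS18B are counted as particular to mitochondria. MRPS18A, placed in the large subunit, was at 22.8 to 36.8 CPM in muscle, 5.44 to 21.5 CPM in subcutaneous fat and 6.66 to 16.7 CPM in perirenal fat. It was higher in muscle by 1.42 ± 0.18 over perirenal fat on the log2 scale (FDR = 1.0e-08) and by 1.26 ± 0.17 over subcutaneous fat (FDR = 1.4e-07). MRPS18C, placed in the small subunit, went the other way, at 0.25 to 0.82 CPM in muscle against 2.02 to 6.21 CPM in subcutaneous and 1.56 to 4.10 CPM in perirenal fat. For muscle over perirenal fat the log2 fold change was -2.66 ± 0.22 (FDR = 2.1e-12), on 103 counts over the 12 muscle pools. MRPS18C shared a region of 63423 bases with 3 other loci in muscle, which held 6940 counts. In perirenal fat it shared 63461 bases with 3 other loci (4457 counts), and in subcutaneous fat 21833 bases with FAM175A (3854 counts). MRPS18B, placed in the small subunit, shared a locus with ATAT1 in subcutaneous fat and was not tested between tissues. It was at 7.83 to 16.2 CPM in muscle and 13.8 to 23.2 CPM in perirenal fat. Its region was 6696 bases with no other locus in muscle, and 39824 bases with 3 other loci (14533 counts) in perirenal fat. MRPS18A shared its region with ENSOARG00000008711 in every tissue, and with RSPH9 in muscle and perirenal fat. How reads were divided in these regions was not tested.

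Among members higher in perirenal fat, MRPL28 had the largest difference with enough counts. Its pools were at 16.1, 21.3 and 32.4 CPM in muscle, 13.9, 23.7 and 72.7 CPM in subcutaneous fat and 72.2, 95.8 and 170.5 CPM in perirenal fat. Muscle and perirenal pools did not overlap, with a log2 fold change of -2.22 ± 0.16 (FDR = 1.2e-13). It was alone in its region, chr24:282736-285204 in muscle, in every tissue. Subcutaneous over perirenal fat gave -1.86 ± 0.16 (FDR = 1.4e-11), with overlapping pools. Muscle over subcutaneous fat gave -0.36 ± 0.16 (FDR = 0.043), and with pools as a block it was -0.33 (FDR = 0.063).

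MRPS22, a small subunit protein particular to mitochondria that is known from an inherited defect of mitochondrial translation, was at 17.7, 21.4 and 26.2 CPM in muscle. It was at 49.6, 65.6 and 84.4 CPM in subcutaneous fat and 47.2, 57.6 and 77.2 CPM in perirenal fat. Every adipose pool was above every muscle pool. Its log2 fold change of muscle was -1.40 ± 0.08 over perirenal fat (FDR = 7.2e-17) and -1.62 ± 0.08 over subcutaneous fat (FDR = 2.7e-18). MRPS22 shared its region with ENSOARG00000007072 and ENSOARG00000023628 in every tissue. Over all pools, MRPS22 held 4829 counts in muscle, 10617 in subcutaneous fat and 8623 in perirenal fat. The other loci of the region held 5574, 4390 and 1723 counts in the same order, and how reads were divided among them was not tested.

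MRPL37, a large subunit protein particular to mitochondria, was at 62.9 to 101.9 CPM in muscle and 132 to 239 CPM in perirenal fat, a log2 fold change of -1.24 ± 0.14 (FDR = 2.4e-09). Its subcutaneous pools overlapped both, at 78.0 to 265 CPM, and muscle over subcutaneous fat gave -0.63 ± 0.14 (FDR = 0.00021). MRPL2, close to the site where peptide bonds form, was at 27.9 to 37.1 CPM in muscle and 50.0 to 92.9 CPM in perirenal fat, a log2 fold change of -1.06 ± 0.11 (FDR = 4.5e-10). Subcutaneous over perirenal fat gave -1.23 ± 0.11 (FDR = 5.4e-11) for MRPL2. The gene shared its region with KLC4 in muscle and subcutaneous fat but not in perirenal fat.

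MRPS31, a small subunit protein particular to mitochondria, was at 32.7 to 52.3 CPM in subcutaneous and 50.9 to 88.2 CPM in perirenal fat. Subcutaneous over perirenal fat gave -0.74 ± 0.09 (FDR = 1.4e-08).

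MRPL12 belongs to the flexible stalk of the large subunit, which takes up translation factors, and is known also to bind the mitochondrial RNA polymerase. It was at 39.4, 53.2 and 68.2 CPM in muscle, 12.9, 19.7 and 45.1 CPM in subcutaneous fat and 79.1, 106.2 and 152.5 CPM in perirenal fat. Perirenal pools were above all pools of both other tissues. It differed by a log2 fold change of -2.27 ± 0.15 for subcutaneous over perirenal fat (FDR = 1.1e-14) and -1.05 ± 0.14 for muscle over perirenal fat (FDR = 7.6e-08). Muscle was above subcutaneous fat by 1.22 ± 0.15 (FDR = 8.5e-09). MRPL12 was alone in its region in every tissue.

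Of the other stalk proteins, MRPL11 was at 46.5 to 92.1 CPM in perirenal fat, 32.4 to 52.3 CPM in muscle and 31.5 to 72.4 CPM in subcutaneous fat. It was lower than in perirenal fat by a log2 fold change of -0.61 ± 0.11 in muscle (FDR = 1.5e-05) and -0.72 ± 0.11 in subcutaneous fat (FDR = 1.9e-06). MRPL10, which ties the stalk to the ribosome, shared a locus with SCRN2 in perirenal fat and was not tested. Its levels were 50.7 ± 6.46 CPM in muscle, 64.3 ± 11.01 CPM in subcutaneous fat and 83.4 ± 9.17 CPM in perirenal fat (SD, n = 12).

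MRPS7, the homologue of a bacterial protein in the head of the small subunit, was low in perirenal fat. Its pools were at 6.85, 12.7 and 16.9 CPM in muscle, 7.16, 9.93 and 17.4 CPM in subcutaneous fat and 0.59, 1.25 and 2.50 CPM in perirenal fat. Differences were a log2 fold change of 3.21 ± 0.18 for muscle over perirenal fat (FDR = 6.0e-17) and 3.05 ± 0.18 for subcutaneous over perirenal fat (FDR = 3.8e-16), on 190 counts over the 12 perirenal libraries. It shared its region with MIF4GD and GGA3 in muscle and perirenal fat, and with MIF4GD in subcutaneous fat. Those neighbours were at 29.8 and 33.9 CPM in muscle and 21.4 and 43.6 CPM in perirenal fat, and how reads were divided among them was not tested.

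**Figure D2:**
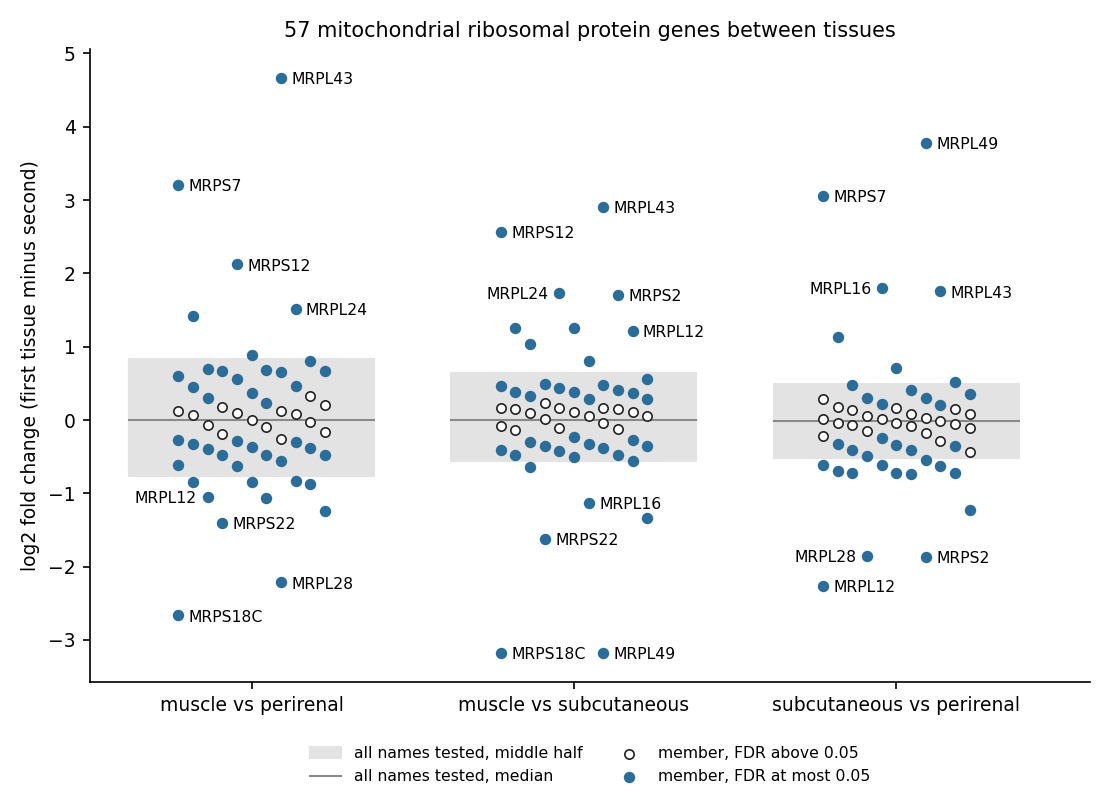
Log2 fold change (y axis, first tissue minus second) of the 57 joined members in each tissue comparison (x axis). Filled points passed FDR ≤0.05, open points did not, the grey band is the interquartile range of all names tested and the line their median. Members lie on both sides of 0 in all comparisons, from -3.18 to 4.67, and 42, 40 and 34 of the 57 are filled.

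Between muscle and subcutaneous fat, 40 of the 57 members passed FDR ≤0.05, against 71.9% of all names. Of these, 21 were higher and 19 lower in muscle, against 36% and 35.9% of all names, and 13 differed at least 2-fold, against 32.6%. The median log2 fold change was 0.11, beside 0.00 over all names. With library totals the split was 17 higher and 23 lower, against 29.6% and 43% of all names, and the median of the members turned to -0.05, beside -0.16 over all names. Among the 37 members with like spans, 18 were higher and 9 lower in muscle. A separate fit on names with like spans gave 20 and 8, against 35.1% and 34.1% of the 7641 names in that fit. Without the 5 subcutaneous pools richest in muscle markers, 42 members were called, 24 higher and 18 lower in muscle, against 37% and 34% of all names.

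MRPL49, a large subunit protein particular to mitochondria, had its highest levels in subcutaneous fat. Its pools were at 114, 122.8 and 132.6 CPM there, against 8.80, 14.01 and 18.8 CPM in muscle and 3.92, 8.44 and 19.3 CPM in perirenal fat. The subcutaneous pools lay far above all others and close together. Subcutaneous fat had a log2 fold change of 3.78 ± 0.15 over perirenal fat (FDR = 1.6e-20), and that of muscle over subcutaneous fat was -3.18 ± 0.14 (FDR = 5.2e-19). The assembled region of the locus was 10841 bases long in muscle, 9906 in subcutaneous fat and 301020 in perirenal fat. In perirenal fat it was shared with 13 other loci, among them one of the abundant RNA NEAT1 at 956 ± 208 CPM. The part of that assembly in the difference was not tested.

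MRPL16, at the binding site of transfer RNA in the large subunit, was at 15.3 to 27.2 CPM in muscle, 35.9 to 64.99 CPM in subcutaneous fat and 9.58 to 21.1 CPM in perirenal fat. Subcutaneous pools were above all others, by a log2 fold change of 1.80 ± 0.12 over perirenal fat (FDR = 1.6e-14). Muscle over subcutaneous fat was -1.13 ± 0.12 (FDR = 4.4e-10). MRPL16 shared its region with STX3 in every tissue. Over all pools, MRPL16 held 5111, 8093 and 2121 counts in muscle, subcutaneous and perirenal fat. STX3 held 5950, 2936 and 3814, and how reads were divided between them was not tested. MRPS6, of the small subunit, was at 63.9 to 217 CPM in subcutaneous fat and 45.2 to 65.4 CPM in muscle, a log2 fold change of muscle of -1.34 ± 0.14 (FDR = 6.7e-10). In perirenal fat MRPS6 was at 62.9 to 111 CPM, and subcutaneous over perirenal fat gave 0.71 ± 0.14 (FDR = 4.8e-05). MRPS6 shared its region with ENSOARG00000007712 in every tissue. MRPS35, particular to mitochondria, was at 54.0 to 101 CPM in subcutaneous and 21.4 to 41.7 CPM in perirenal fat, a log2 fold change of 1.14 ± 0.11 (FDR = 1.4e-10).

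MRPS2, a small subunit protein with a bacterial homologue, was low in subcutaneous fat. Its pools were at 3.67, 8.05 and 10.5 CPM in muscle, 0.14, 2.06 and 4.94 CPM in subcutaneous fat and 5.09, 7.54 and 13.9 CPM in perirenal fat. Subcutaneous and perirenal pools did not overlap, with a log2 fold change of -1.87 ± 0.26 (FDR = 2.7e-07). Muscle over subcutaneous fat was 1.71 ± 0.26 (FDR = 9.0e-07). This locus is a short piece on an unplaced scaffold in all tissues.

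**Figure D3:**
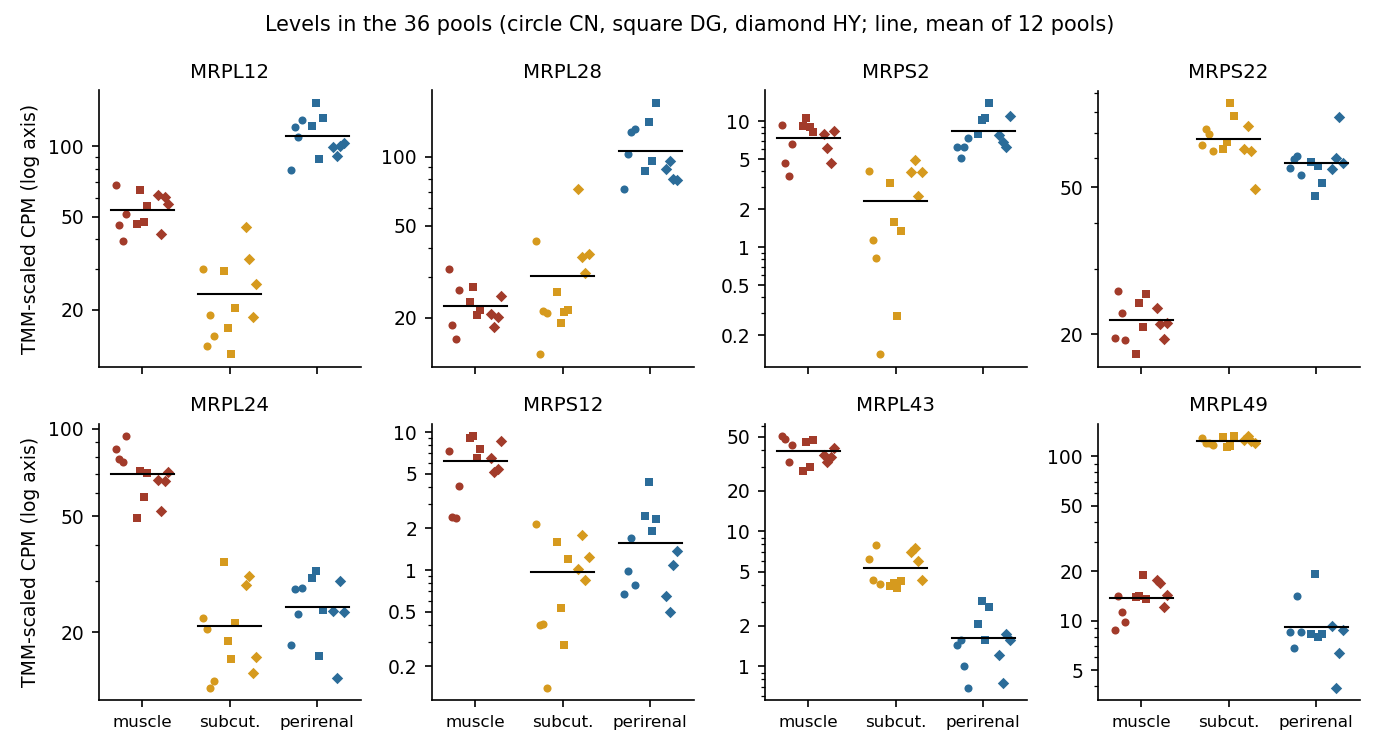
TMM-scaled CPM (y axis, log scale) of 8 members in the 36 pools, by tissue (x axis). Marker shapes are maternal diets and lines the mean of 12 pools. MRPL12 and MRPL28 are highest in perirenal fat, MRPL24, MRPS12 and MRPL43 in muscle, MRPL49 in subcutaneous fat, and MRPS22 is lowest in muscle.

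Between subcutaneous and perirenal fat, 34 of the 57 members passed FDR ≤0.05, against 66.8% of all names. Of these, 14 were higher and 20 lower in subcutaneous fat, against 33.2% and 33.6% of all names, and 9 differed at least 2-fold, against 27.1%. The median log2 fold change was -0.06, beside -0.01 over all names. With library totals 38 passed, 8 higher and 30 lower, against 25.1% and 41.2% of all names. Without the 5 pools richest in muscle markers 29 passed, 7 higher and 22 lower in subcutaneous fat, against 25.7% and 28.6% of all names. The calls of MRPL17, MRPL44, MRPL48, MRPL51, MRPS18C, MRPS27, MRPS30 and MRPS33 were then lost, and those of MRPL24, MRPL27 and MRPS9 were gained. Summed skeletal muscle markers were at 797 to 16768 CPM in the 7 pools left. The part of those markers in the calls was not tested.

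Of the 22 large subunit proteins with a bacterial homologue, 11 were higher in perirenal fat, against 33.6% of all names, and 2 in subcutaneous fat, against 33.2%, with a median log2 fold change of -0.31 for subcutaneous over perirenal fat. Against muscle, 11 were higher in perirenal fat and 5 in muscle, with a median of -0.21, where 39.9% and 39.8% of all names were. Read against the same shares for muscle and perirenal fat, of the 16 large subunit proteins particular to mitochondria 7 were higher in muscle and 5 in perirenal fat. Of the 12 small subunit proteins with a bacterial homologue, 4 were higher in muscle and 4 in perirenal fat, and of the 7 particular to mitochondria 3 were higher in each. The difference between these classes was not tested.

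MRPL47, a large subunit protein at the tunnel exit with a bacterial homologue, was at 50.3, 59.5 and 78.9 CPM in muscle, 55.0, 69.3 and 109.9 CPM in subcutaneous fat and 86.7, 110.8 and 132.8 CPM in perirenal fat. Muscle and perirenal pools did not overlap, with a log2 fold change of -0.85 ± 0.08 (FDR = 8.5e-12). MRPL47 shared its region with ACTL6A in every tissue, and in perirenal fat with NDUFB5 too. The other loci of the region held 3100 counts in muscle, 2576 in subcutaneous fat and 19767 in perirenal fat. How reads were divided among them was not tested. MRPL45, which anchors the ribosome to the inner membrane at the tunnel exit, was at 34.8 to 68.9 CPM in muscle and 49.3 to 80.0 CPM in perirenal fat, a log2 fold change of -0.30 ± 0.09 (FDR = 0.0034).

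MRPL3 and MRPL44, both known from inherited heart disease with failed mitochondrial translation, differed in direction. MRPL3 was lower in muscle than in perirenal fat by -0.47 ± 0.09 on the log2 scale (FDR = 1.6e-05). It was at 35.4 to 59.2 CPM in muscle and 54.3 to 87.8 CPM in perirenal fat. MRPL44 was higher in muscle by 0.89 ± 0.12 (FDR = 5.0e-08), at 18.5 to 32.9 CPM in muscle and 9.08 to 19.6 CPM in perirenal fat. MRPS30 was lower in muscle by -0.48 ± 0.07 (FDR = 2.4e-07), at 22.97 to 35.4 CPM against 31.6 to 47.2 CPM in perirenal fat.

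Fewer members had all 12 pools of a tissue apart from all 12 of another. Muscle and perirenal fat separated for 13 members, against 39.8% of all names, with 4 higher and 9 lower in muscle. Muscle and subcutaneous fat separated for 9 members, 5 higher and 4 lower in muscle, against 20.7% of all names. Subcutaneous and perirenal fat separated for 7 members, 5 higher and 2 lower in subcutaneous fat, against 13.7%.

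By mean level, 23 members were highest in muscle, 20 in perirenal fat and 14 in subcutaneous fat. By edgeR with TMM scaling, the differences passed FDR ≤0.05 in all 3 comparisons for 18 members, against 38.8% of all names, and in none for 6, against 7.23%. The 6 were MRPL9, MRPL19, MRPL39, MRPL42, MRPS10 and MRPS15. MRPL9 and MRPS10, for example, had narrow ranges in all tissues. MRPL9 was at 88.1 to 107.8 CPM in muscle, 81.3 to 126.5 CPM in subcutaneous and 80.7 to 124.5 CPM in perirenal fat. MRPS10 was at 92.8 to 149.2 CPM, 86.7 to 121.4 CPM and 83.1 to 125.2 CPM in the same order. With library totals all of these 6 but MRPL19 passed in at least 1 comparison. MRPS10 passed between muscle and subcutaneous fat by DESeq2 (FDR = 0.030) and with RLE size factors (edgeR FDR = 0.041). MRPS10, MRPL39 and MRPL9 also passed in some fits with single pools left out, and MRPL39 without the 5 pools richest in muscle markers. That these 6 missed the threshold does not show equal levels.

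MRPS36 and MRPS16 shared loci with neighbours and were not tested between tissues. The locus of MRPS36 was at 125 to 214 CPM in muscle, 75.9 to 186 CPM in subcutaneous and 89.3 to 158 CPM in perirenal fat. That of MRPS16 was at 37.9 to 53.5 CPM in muscle, 39.1 to 59.9 CPM in subcutaneous and 22.6 to 39.3 CPM in perirenal fat.

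Variation between pools was measured within each tissue. The median coefficient of variation over the 12 pools was 16.2% in muscle, 22.7% in subcutaneous and 18.3% in perirenal fat for the members. Over all names it was 19.3%, 31.1% and 21.6%, higher in every tissue. Those names were not matched to the members by level, and the difference was not tested.

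Other genes of the pathway gave mixed directions as well. Of 12 translation factors, 9 were higher in perirenal fat than in muscle and 2 lower, against 39.9% and 39.8% of all names. MTFMT, which formylates the initiator transfer RNA, was at 41.1 ± 7.5 CPM in perirenal fat and 14.9 ± 2.5 CPM in muscle (SD, n = 12). TUFM, the elongation factor Tu of mitochondria, was at 171.9 ± 33.3 CPM in perirenal and 78.0 ± 29.2 CPM in subcutaneous fat, a log2 fold change of -1.16 ± 0.13 for subcutaneous over perirenal fat (FDR = 3.7e-09).

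Of 15 assembly factors of the mitochondrial ribosome, 7 were higher in muscle and 5 in perirenal fat, against 39.8% and 39.9% of all names. RPUSD4, which modifies mitochondrial ribosomal RNA, was at 12.8 ± 1.4 CPM in muscle and 3.12 ± 0.82 CPM in perirenal fat. MTG2, a GTPase of the large subunit, was at 29.0 ± 5.8 CPM in perirenal fat, 24.3 ± 2.9 CPM in muscle and 3.51 ± 1.16 CPM in subcutaneous fat. RBFA, which acts on the small subunit, was at 21.4 ± 4.8 CPM in subcutaneous fat, 6.16 ± 2.49 CPM in muscle and 3.69 ± 0.92 CPM in perirenal fat. The part of the separate assembly of loci in these differences was not tested.

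Of 14 mitochondrial transfer RNA synthetases, 4 were higher in muscle and 6 in perirenal fat. PARS2, for proline, was at 7.24 ± 1.11 CPM in muscle and 0.46 ± 0.27 CPM in perirenal fat, and the part of the assembly in this was not tested. Of 5 mitochondrial ribosome proteins with other names, 2 were higher in muscle and 2 in perirenal fat. Of 6 genes of mitochondrial transcription, 1 was higher in muscle and 2 in perirenal fat. Beside these 3 lists, 39.8% of all names were higher in muscle and 39.9% in perirenal fat.

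Of 8 regulators of mitochondrial content, 4 were higher in muscle and 2 in perirenal fat, against 39.8% and 39.9% of all names. PPARGC1A, the coactivator PGC-1 alpha, was at 53.5 ± 5.7 CPM in muscle, 27.4 ± 9.4 CPM in subcutaneous and 4.46 ± 1.72 CPM in perirenal fat. The log2 fold change of muscle over perirenal fat was 3.61 ± 0.20 (FDR = 6.4e-17). NRF1, a factor known to bind promoters of mitochondrial genes, was at 23.7 ± 2.3 CPM in muscle and 48.0 ± 8.9 CPM in perirenal fat, a log2 fold change of -1.02 ± 0.09 (FDR = 4.1e-12).

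For comparison, 28 of 46 cytosolic ribosomal protein genes were higher in perirenal fat than in muscle and 10 lower, against 39.9% and 39.8% of all names. Their median log2 fold change was -0.45 for muscle over perirenal fat. Of 54 oxidative phosphorylation subunit genes, 19 were higher in perirenal fat and 15 in muscle, against the same shares, with a median of -0.03. Between subcutaneous and perirenal fat, 26 of these 54 were higher in perirenal fat and 5 in subcutaneous fat, against 33.6% and 33.2% of all names. No test was made of whether these lists differ from the mitochondrial ribosomal protein genes.

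The diets were compared within each tissue. The CN pools are shared by the comparisons of CN with DG and of CN with HY, so those are not independent of each other. In muscle, no member of 67 tested loci passed FDR ≤0.05 between CN and DG by edgeR, against 1.01% of 18573 loci. At an unadjusted p under 0.05 there were 19, 5 higher and 14 lower in DG, against 10.7% of all loci higher and 5.62% lower. Without CN F1 the 19 became 11 and without CN M2 12. DESeq2 called 5, which were MRPL21, MRPL47, MRPS7, MRPS12 and MRPS34, and the likelihood-ratio test of edgeR 1, MRPL21. Of all 18573 loci, DESeq2 called 707 and the likelihood-ratio test 618. The median log2 fold change of the members was -0.16 (DG minus CN), beside -0.00 over all loci, and 48 of 67 were below 0, against 50.3% of all loci.

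Of the 44 large subunit loci, 36 were below 0 with a median of -0.19, while 11 of 22 small subunit loci were below 0 with a median of -0.02. With library totals as the scale the median of the members was -0.14, and leaving out single pools gave -0.24 to -0.06. The difference between the subunits was not tested.

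MRPL21, the homologue of a bacterial large subunit protein, had the smallest p between CN and DG in muscle. Its CN pools were at 55.5 (F1), 39.5 (F2), 41.2 (M1) and 48.1 CPM (M2). Its DG pools were at 30.9, 32.7, 26.9 and 31.4 CPM in the same order, all lower than any CN pool. The HY pools, at 31.7, 30.1, 40.7 and 36.5 CPM, overlapped both. The log2 fold change of DG over CN was -0.59 ± 0.13 (FDR = 0.054). DESeq2 gave FDR = 0.0033, and without CN F2 the edgeR fit gave FDR = 0.035.

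Muscle MRPS34, particular to mitochondria, had CN pools at 7.87, 8.34, 6.69 and 9.64 CPM and DG pools at 13.9, 13.8, 10.4 and 10.9 CPM. All DG pools were above all CN pools, with a log2 fold change of 0.59 ± 0.17 (FDR = 0.111). Muscle MRPL47 had CN pools at 66.9 to 78.9 CPM, above DG (50.3 to 62.3 CPM) and HY (53.7 to 59.2 CPM). Its log2 fold change was -0.31 ± 0.10 for DG (FDR = 0.149) and -0.30 ± 0.10 for HY (FDR = 0.109).

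Between CN and HY in muscle, 1 of the 67 loci passed FDR ≤0.05, against 2.69% of all loci. It was MRPS7, whose CN pools were at 7.87, 12.0, 6.85 and 8.07 CPM (F1, F2, M1 and M2). Its HY pools were at 16.9, 15.7, 12.6 and 15.0 CPM and its DG pools at 12.3, 12.7, 14.6 and 13.5 CPM. All HY and DG pools were above all CN pools. Its log2 fold change was 0.80 ± 0.18 for HY over CN (FDR = 0.031) and 0.62 ± 0.17 for DG over CN (FDR = 0.110). The other genes of the MRPS7 region, MIF4GD and GGA3, each gave 0.36 for HY over CN (FDR = 0.173 and 0.105).

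The call of MRPS7 was near the threshold. It was lost with the replicate label, which holds fetal sex and pool number, as a block (FDR = 0.055). The same held with the 8 pools of CN and HY alone (FDR = 0.058). It was also lost when any of CN F1, CN M1, CN M2, HY F1, HY F2 or HY M2 was left out (FDR = 0.056 to 0.121).

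At an unadjusted p under 0.05 there were 17 muscle loci between CN and HY, 7 higher and 10 lower in HY, against 12.4% of all loci higher and 8.01% lower, and 11 without HY F1. The median of the members was -0.14, beside -0.02 over all loci, with 47 of 67 below 0, against 52.1% of all loci. Of the large subunit loci 33 of 44 were below 0, and of the small subunit loci 13 of 22.

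Between CN and DG in muscle, 8 member loci had all DG pools under all CN pools, against 3.63% of all loci, and 2 had all above, against 5.2%. Between CN and HY, 8 loci had all HY pools under all CN pools, against 6.37%, and 1 had all above, against 6.5%. As CPM of library totals, the summed level of the 57 joined members was 2504.1 ± 193.1 CPM in CN muscle, 2334 ± 139 CPM in DG and 2346.3 ± 127.9 CPM in HY (SD, n = 4), and the pools of the diets overlapped.

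Between DG and HY in muscle, no member passed FDR ≤0.05 by edgeR, and of all loci 0% did. None reached an unadjusted p under 0.05, against 1.21% of all loci higher and 0.937% lower in HY. There was 1 without DG F2, DG M1 or HY M2 and 3 without HY F2. DESeq2 and the likelihood-ratio test called no member, and of all loci 2 and 3. MRPS27 had the smallest p, with DG pools at 50.7 to 64.5 CPM and HY pools at 64.7 to 81.1 CPM and a log2 fold change of 0.29 ± 0.14 (edgeR FDR = 0.9997). MRPS9 was next, at 34.7 to 40.8 CPM in DG and 43.2 to 49.2 CPM in HY, with 0.27 ± 0.15. MRPS21 was at 46.8 to 53.8 CPM in DG and 45.7 to 67.6 CPM in HY, with 0.23 ± 0.14. Only MRPS27 and MRPS9 had all HY pools above all DG pools, against 0.942% of all loci, and none had all below, against 0.98%. The median of the members was 0.01 (-0.01 with library totals), and 32 of 67 were below 0, against 53.3%. Leaving out single pools moved the median to between -0.07 and 0.08 and the number below 0 to between 16 (DG F2 out) and 47 (DG F1 out).

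**Figure D4:**
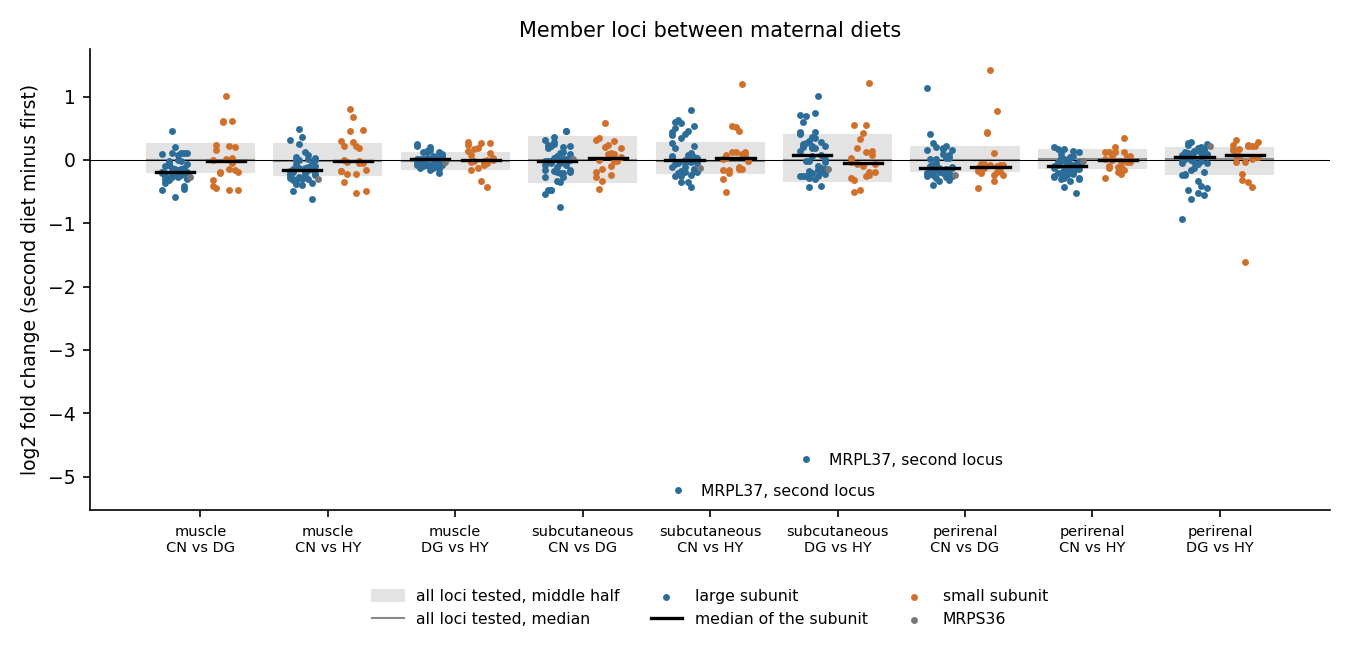
Log2 fold change (y axis, second diet minus first) of every tested member locus in the comparisons of maternal diets (x axis), split into large subunit, small subunit and MRPS36. Grey bands are the interquartile range of all loci tested and black lines the median of each subunit. In muscle the large subunit median is -0.19 in DG and -0.17 in HY, each against CN, and the single point past FDR ≤0.05 is MRPS7 in muscle between CN and HY.

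In perirenal fat, no member of 67 loci passed FDR ≤0.05 between CN and DG by edgeR, against 0.115% of 18246 loci. At an unadjusted p under 0.05 there were 9, 5 higher and 4 lower in DG, against 7.08% of all loci higher and 2.83% lower. The 9 became 5 without CN M2, DG F2 or DG M1. DESeq2 called none and the likelihood-ratio test 1, MRPS12, where of all loci they called 255 and 193. The median of the members was -0.12, beside -0.01 over all loci, with 47 of 67 below 0, against 51.2%, and -0.06 with library totals. Above all CN pools lay all DG pools of 4 loci, against 4.14% of all loci, and below them those of 0, against 2.3%.

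MRPS12 had the smallest p, with perirenal CN pools at 0.68, 0.99, 1.71 and 0.77 CPM and DG pools at 2.48, 4.32, 1.92 and 2.35 CPM. The HY pools were at 0.65, 0.50, 1.09 and 1.37 CPM. All DG pools were above all pools of both other diets. Its log2 fold change was 1.42 ± 0.39 for DG over CN (FDR = 0.171) and -1.61 ± 0.40 for HY over DG (FDR = 0.274). DESeq2 gave FDR = 0.038 for HY over DG, and the locus held 227 counts over all 12 pools.

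MRPS2 followed, with perirenal CN pools at 6.25, 5.09, 6.25 and 7.35 CPM and DG pools at 7.87, 10.2, 10.5 and 13.9 CPM. Its log2 fold change was 0.77 ± 0.22 (FDR = 0.198), and the HY pools, at 6.26 to 10.9 CPM, overlapped both. The larger MRPL43 locus was at 0.62 to 1.34 CPM in CN and 1.56 to 3.07 CPM in DG, a log2 fold change of 1.14 ± 0.36 (FDR = 0.257) on 219 counts over all perirenal pools.

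Between CN and HY in perirenal fat, no member passed by edgeR, DESeq2 or the likelihood-ratio test, and 0% of all loci did by edgeR. Of all loci, DESeq2 called 2 and the likelihood-ratio test 1. At an unadjusted p under 0.05 there was a single locus, MRPL14, lower in HY, against 1.12% of all loci lower and 1.19% higher. Without CN F1 there were 9, and without CN F2 or CN M1 2. The MRPL14 CN pools were at 102, 140.7, 137.7 and 182.6 CPM and its HY pools at 93.9, 97.0, 108.7 and 91.9 CPM, with a log2 fold change of -0.52 ± 0.16 (edgeR FDR = 0.9999). The next were MRPL55 at -0.24 ± 0.13 and MRPL23 at -0.29 ± 0.16. The median of the members was -0.08, beside 0.01 over all loci, with 45 of 67 below 0, against 47.6%. No locus had the pools of the diets apart, against 0.866% of all loci higher and 0.74% lower in HY.

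Between DG and HY in perirenal fat, 0% of all loci and no member passed FDR ≤0.05 by edgeR, while DESeq2 and the likelihood-ratio test each called 1, MRPS12. Of all loci, DESeq2 called 101 and the likelihood-ratio test 41. At an unadjusted p under 0.05 there were 8, 1 higher and 7 lower in HY, against 2.99% and 6.87% of all loci, with 4 left without DG F2 and 5 without DG M2. MRPL14 had DG pools at 123.7 to 162.5 CPM, all above the HY pools, with a log2 fold change of -0.56 ± 0.16 (FDR = 0.311). MRPL2 was at 64.0 to 92.9 CPM in DG and 53.9 to 64.98 CPM in HY, with -0.41 ± 0.15 (FDR = 0.404). The pools were apart for 1 locus higher in HY, against 2.29% of all loci, and 2 lower, against 3.06%. The median of the members was 0.06, with 28 of 67 below 0, against 47.7%. The ratio of large to small subunit levels was 2.43 ± 0.06 in HY, 2.71 ± 0.22 in DG and 2.62 ± 0.09 in CN (SD, n = 4), with overlapping pools.

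In subcutaneous fat, no member of 69 loci passed FDR ≤0.05 in any diet comparison by edgeR, DESeq2 or the likelihood-ratio test, and by edgeR 0% of all 18008 loci did. Of all loci, DESeq2 called 278 between CN and DG, 0 between CN and HY and 894 between DG and HY. The likelihood-ratio test called 29, 0 and 231 in the same order. At an unadjusted p under 0.05 there were 5 between CN and DG, 5 between CN and HY and 5 between DG and HY. Of these 1, 2 and 5 were higher in the second diet, against 7.65%, 2.87% and 8.69% of all loci, and 4, 3 and 0 lower, against 7.35%, 1.47% and 9.45%. These counts rested on single pools. Between CN and DG there were 1 without DG F1 or DG M2, 2 without CN M1 or CN M2 and 3 without DG F2. Between CN and HY there were 11 without CN F1, 2 without CN M1 and 0 without CN M2, and between DG and HY 16 without HY F2, 10 without HY M1 and 3 without HY F1. The pools were apart for 2, 0 and 3 loci higher in the second diet, against 3.91%, 1.66% and 5.06%, and for 2, 0 and 0 lower, against 2.84%, 1.06% and 4.2%. The medians of the members were -0.01, -0.00 and 0.02, with 37, 35 and 34 of 69 below 0, against 50.6%, 52.8% and 50.1%. Those medians moved with the scale, to -0.15, 0.02 and 0.17 under library totals, and to -0.21, -0.03 and 0.14 without the 5 pools richest in muscle markers. Such pools numbered 1 in CN, 3 in DG and 1 in HY, and the part of their markers in these values was not tested.

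MRPL28 had the smallest p between DG and HY in subcutaneous fat. Its DG pools were at 25.9, 18.9, 21.1 and 21.5 CPM and its HY pools at 72.7, 36.5, 31.1 and 37.8 CPM, with the HY F1 pool far above the others. The CN pools, at 43.0, 13.9, 21.4 and 20.9 CPM, overlapped both. For HY over DG the log2 fold change was 1.002 ± 0.33 (FDR = 0.166). MRPL2 had DG pools at 18.6 to 29.2 CPM and HY pools at 29.3 to 65.3 CPM, all higher than DG, with a log2 fold change of 0.69 ± 0.26 (FDR = 0.198). The locus of MRPL38 and TRIM65 was at 53.6 to 74.2 CPM in DG and 75.1 to 97.0 CPM in HY, with 0.43 ± 0.15 (FDR = 0.174).

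Between CN and DG in subcutaneous fat the smallest p values were those of MRPL47, the larger MRPL43 locus and MRPL38. Their log2 fold changes of DG over CN were -0.47 ± 0.17, -0.74 ± 0.29 and -0.35 ± 0.15 (FDR = 0.275, 0.291 and 0.314). Between CN and HY they were MRPL3, MRPL2 and MRPL42, with -0.43 ± 0.17, 0.63 ± 0.26 and -0.35 ± 0.15 (FDR = 0.944 for each). A second, small locus of MRPL37 was at 0 to 15.3 CPM in CN, 0 to 11.8 CPM in DG and 0.08 to 0.51 CPM in HY, so its fold changes rest on single pools.

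**Figure D5:**
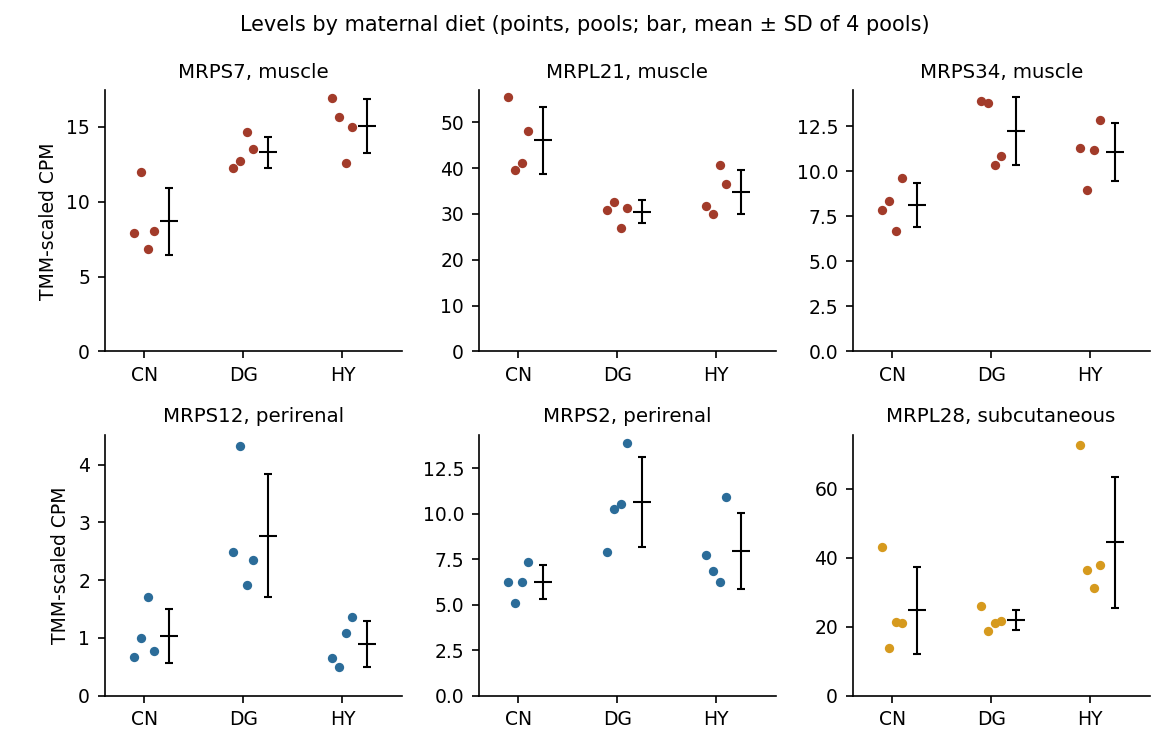
TMM-scaled CPM (y axis) by maternal diet (x axis) for 6 members in the tissue named above each panel. Points are pools and bars the mean ± SD of 4 pools. Muscle MRPS7 is lower in CN (6.85 to 12.0) than in HY (12.6 to 16.9), and it is the member that passed FDR ≤0.05.

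The 13 genes chosen for their place in the ribosome or their known defects, among them MRPL12, MRPL45, MRPS16, MRPS22 and the MRPS18 paralogues, passed FDR ≤0.05 in no diet comparison of any tissue by edgeR. MRPS12 passed by DESeq2 between CN and DG in muscle and between DG and HY in perirenal fat, and by the likelihood-ratio test in both perirenal comparisons with DG. Their log2 fold changes between CN and DG ran from -0.30 to 1.01 in muscle, from -0.33 to 0.46 in subcutaneous fat and from -0.24 to 1.42 in perirenal fat. Between DG and HY in perirenal fat they ran from -1.61 to 0.31, and the values furthest from 0 in perirenal fat are those of MRPS12 given above. Muscle MRPS12 was at 1.01 ± 0.32 for DG over CN (edgeR FDR = 0.150, DESeq2 FDR = 0.043, and edgeR FDR = 0.025 without CN F1), with overlapping pools of 2.36 to 7.34 CPM in CN and 6.46 to 9.33 CPM in DG.

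Among the other lists, few genes passed between diets, all of them in muscle. Of 17 mitochondrial transfer RNA synthetases, LARS2 was higher in HY (0.76 ± 0.16, FDR = 0.030) and RARS2 lower (-0.49 ± 0.12, FDR = 0.049). Of 10 regulators of mitochondrial content, GABPA was higher in HY (1.04 ± 0.26, FDR = 0.049). No translation factor, assembly factor, mitochondrial transcription gene or other-named ribosome protein passed in any diet comparison. Of 58 cytosolic ribosomal protein loci in muscle, 1 was higher in DG than in CN, and 3 were higher and 1 lower in HY. Of 56 oxidative phosphorylation loci in muscle, 1 was higher in HY than in CN. Beside these counts, 1.01% of all muscle loci passed for DG over CN, and 96.3% of those were higher in DG. For HY over CN 2.69% passed, and 90.8% of those were higher in HY. Whether these lists differed from all loci was not tested.

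Whether the diet effect differed between tissues was tested as an interaction over all 36 libraries. None of the 57 members passed FDR ≤0.05 by edgeR, against 0.282% of all names, and 3 had an unadjusted p under 0.05, or up to 10 with a single pool left out (subcutaneous DG F1). They were MRPL43, MRPL28 and MRPL2, with an edgeR FDR of 0.103, 0.121 and 0.121, and DESeq2 called 3, where it called 602 of 12769 names. Without the subcutaneous CN F1 pool edgeR called 2, and the number among all names in that fit is not given here. For MRPL28 the log2 fold change of HY over DG was 1.002 in subcutaneous fat, -0.53 in perirenal fat and -0.13 in muscle.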

How the data were processed

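The authors deposited read counts per assembled locus, 1 file per library and without normalization. The submitters' processing notes name TopHat2 2.0.4, Cufflinks 2.1.1, HTSeq and genome build Oar_v3.1, with loci merged separately for each tissue. How the counting treated reads that map to several places, strand or overlapping loci is not given in the sources used here, so values of members that overlap a neighbour or have pseudogenes are uncertain. Total counts per library were 6705766 to 29625146, and intervals and SEs cover these pools only.

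Members followed the name rule. Members and gene lists were chosen with earlier results of these data known. Counts were filtered by filterByExpr of edgeR 4.0.16 (minimum count 10, minimum total 15) and scaled by TMM. Printed CPM of single genes are TMM-scaled over all 36 libraries, and summed levels use library totals unless stated. Diets were compared per locus within each tissue, and tissues by gene name over all 36 libraries with loci of a name summed, both by the robust quasi-likelihood F test with Benjamini-Hochberg adjustment over all features tested. SEs are the absolute log2 fold change over the square root of F. The interaction tested 4 terms together.

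Named members are the 5 with the largest difference in each direction per tissue comparison, past FDR ≤0.05 and with a mean of at least 50 counts. In diet comparisons they are all members past FDR ≤0.05 or else the 3 with the smallest p, and 13 genes were always named. Of each other list, the 3 genes with the smallest p were eligible. MRPL9, MRPL11 and MRPS10, the tissue values of MRPL47 and the muscle diet values of MRPL47 were named after their values were seen. One list of pools was taken to hold for all tissues, so a pool number marks the same fetuses across tissues. Deviations of the same pool in different tissues had a mean correlation of 0.11 (muscle and perirenal fat), 0.08 (muscle and subcutaneous fat) and 0.03 (both adipose tissues).

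Alternatives were RLE size factors, library totals, no filter, DESeq2 1.42.0, the likelihood-ratio test, a replicate block, fewer libraries, a muscle marker covariate and each pool left out. Leaving out the 5 subcutaneous pools richest in muscle markers and limiting level sums to members with like spans were chosen after seeing the data. Computations ran in R 4.3.3 with limma 3.58.1 and Python 3.11.15 and were tested on simulated data. Sequences were not used here.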

Additional observations from a re-analysis of the deposited data

Results flagged for a closer look

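For 36 named genes and for the summed level, each group of 4 pools was checked for a pool that stood apart, by the gap to its neighbour against the range of the group. Of 333 groups 19 had such a pool, where chance gives about 1 in 20, so the number is near that of chance.

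In muscle, MRPL10 was at 37.2 CPM in DG F1 (nearest pool 52.3), and in DG M1 were MRPL2 at 30.7 (33.7), MRPL49 at 18.8 (14.2) and MRPL55 at 39.7 CPM (54.8). Muscle MRPL37 was at 93.1 CPM in CN F2 (68.2), MRPL42 at 59.0 in CN M2 (52.0) and MRPS9 at 49.2 in HY F1 (43.8). In subcutaneous fat, MRPL28 was at 72.7 CPM in HY F1 (37.8), MRPL38 at 99.9 in CN M1 (76.2), MRPL44 at 25.8 in HY F2 (16.6) and MRPS12 at 2.16 in CN F1 (0.41). In perirenal fat, the CN F1 pool was lowest for MRPL2 at 50.0 CPM (74.6), MRPL37 at 132 (228) and MRPS7 at 0.59 (1.27). The perirenal DG F2 pool was highest for MRPL49 at 19.3 CPM (8.35) and MRPS31 at 88.2 (57.2). Perirenal MRPL10 was at 75.3 CPM in DG M1 (81.1), MRPS18C at 3.73 in CN M1 (2.87) and MRPS21 at 49.8 in HY F2 (73.5).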

How the results depend on the processing

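For 74 values of named genes the alternatives gave the same direction and side of FDR ≤0.05 in 2474 recomputed values, were stronger in 11, weaker in 14 and reversed in 7. The reversed ones were 2 small differences between subcutaneous and perirenal fat that passed in no fit. MRPL3 gave -0.12 with library totals and -0.028 to 0.11 with single pools left out, below 0 in 4 of them. MRPS18A gave -0.034 with library totals and -0.34 without the 5 pools richest in muscle markers. MRPS12 in the same comparison went from -0.44 to -0.89 (FDR = 0.0067) without subcutaneous CN F1.

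Counts of members past FDR ≤0.05 in muscle were 5 by DESeq2, 1 by the likelihood-ratio test and 0 to 2 with pools left out (2 without CN F2) for CN and DG. For CN and HY they were 2 by DESeq2, 0 with the replicate block, 0 with the 8 pools alone and 0 to 5 with pools left out (5 without CN F2). In perirenal fat they were 1 by the likelihood-ratio test for CN and DG, and 1 by DESeq2 and 1 by the likelihood-ratio test for DG and HY. The interaction gave 3 by DESeq2 and 0 to 2 with pools left out. Shares of all features passing in the fits with pools left out are not given here. Those counts therefore show no change particular to the members. A fit on names with like spans alone called 21 of 37 between subcutaneous and perirenal fat, where the fit on all names called 20 of those 37. The like-span fit called 4855 of its 7641 names. Summed levels were 2682.7 (TMM-scaled), 2917 (20 top names out) and 1584.3 CPM (like spans) in muscle. They were 3113.8 (20 top names out) and 1587 CPM (like spans) in subcutaneous fat, and 2978.4, 3608.9 and 1992.9 CPM in perirenal fat in the order given for muscle. Medians of the members with single pools left out ran from -0.24 to -0.06, -0.23 to -0.10 and -0.07 to 0.08 in muscle (CN and DG, CN and HY, DG and HY). They ran from -0.04 to 0.07, -0.08 to 0.11 and -0.09 to 0.14 in subcutaneous fat and from -0.20 to -0.07, -0.13 to -0.0089 and 0.0020 to 0.13 in perirenal fat. MRPS18B passed between CN and HY in muscle without CN F2 (FDR = 0.029). The cause of these changes was not tested.

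Over all loci, calls between CN and DG in muscle were 188, but 707 by DESeq2, 618 by the likelihood-ratio test and 9 with 8 pools. Between CN and HY they were 500, but 1417, 1157, 295 with library totals and 255 with the block. In perirenal fat CN and DG had 21, but 255 by DESeq2, 193 by the likelihood-ratio test, 70 with library totals, 35 unfiltered, 5 with RLE, 6 with 8 pools and 0 with the block. DG and HY had 0 but 101 and 41 by those tools. In subcutaneous fat, with 0 calls, CN and DG had 278, 29 and 82 (marker covariate), and DG and HY 894, 231 and 266 (block). The interaction had 36, but 602 by DESeq2, 12 unfiltered, 3 with the block and 2 without the 5 pools richest in muscle markers. Where edgeR called 0, DESeq2 and the likelihood-ratio test called 2 and 3 between DG and HY in muscle and 2 and 1 between CN and HY in perirenal fat, and the 8 pools alone called 1 in the former.

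Across diets, deviations of pools of the same label (F1, F2, M1 or M2) had a mean correlation of -0.05 in muscle, 0.05 in perirenal and 0.22 in subcutaneous fat. No source pairs them beyond fetal sex, so the block there holds sex and a pool number. Across tissues the block over pools gained MRPL27 between subcutaneous and perirenal fat (FDR = 0.020), lost MRPL28 between muscle and subcutaneous fat, and gave 42, 39 and 35 members, with no other member call changed. Depth limits MRPS12, MRPL43, MRPS7 and MRPS18C, with 103 to 239 counts in some tissue.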
